A study of Rattus norvegicus with 6 samples.

Results

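The 8 genes described here encode voltage-gated sodium channel alpha subunits (Scn1a, Scn2a, Scn3a, Scn7a, Scn8a, Scn9a, Scn10a and Scn11a), and they were chosen by gene symbol from the 43350 gene rows of the deposited table. Where several rows carried 1 symbol, the protein-coding row with the largest total count was taken. All 8 genes were found and all 8 passed the filter on low values, a mean FPKM (fragments scaled to row length and library total) of at least 0.5, which 26663 rows passed. RNA was taken from the lumbar dorsal root ganglia (DRG) of male Sprague-Dawley rats 11 days after surgery, per the methods on the operated side. The labels give no age, while the methods give the age at which the rats were acquired. In the CCI group (n = 3) the sciatic nerve had been tied loosely, a model of neuropathic pain called chronic constriction injury. In the sham group (n = 3), for which the labels give no treatment, the study's methods describe the same exposure of the nerve without ligatures. The methods describe 1 rat per library, while the library protocol in the labels speaks of a pooled sample. The whole ganglion was sequenced, with cell bodies of injured and uninjured neurons, satellite glia, Schwann cells, vessels and immune cells together, so fewer neurons of a type and less RNA per neuron cannot be told apart.

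An alpha subunit is the pore of a sodium channel. It opens when the membrane is depolarized, lets sodium in, and inactivates again, and the mix of alpha subunits in a sensory neuron sets how easily it fires. Scn9a (Nav1.7), Scn10a (Nav1.8) and Scn11a (Nav1.9) are known from nociceptors, the neurons of pain. The channels of Scn10a and Scn11a resist tetrodotoxin, the puffer fish toxin that blocks most of the others. Scn8a (Nav1.6) and Scn1a (Nav1.1) are carried by large myelinated neurons and by some other afferents, and Nav1.6 is the channel of the mature node of Ranvier. Scn3a (Nav1.3) is the embryonic channel, low in the adult ganglion and known for its return after nerve injury. Scn2a (Nav1.2) is mainly a channel of the brain, and Scn7a (Nax) is a relative that responds to the sodium concentration and not to voltage.

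Total counts lay between 75423546 and 87615743 per library, so that 3 counts, the smallest number taken as detected, stood for 0.0342 to 0.0398 CPM (counts scaled to the library total). The CPM values below were scaled to the total of the rows that passed the filter, times a normalization factor (edgeR's TMM factor). The CCI libraries carried the injury response. Each of the 8 genes listed as marks of injured neurons was called higher by the limits given below, as were 2.57% of all rows, and their summed FPKM was 466, 293 and 258 in CCI 1, 2 and 3 and 83.9 to 91.6 in the sham libraries. All 12 pan-neuronal and all 8 nociceptor genes listed as marks of the ganglion passed the filter. The pan-neuronal sum was higher in the CCI libraries (4121 to 4402 against 3387 to 3934), although none of its genes was called, beside 3.83% of all rows. Its largest part was Tubb3, with a mean of 1388 FPKM in CCI and 1109 in sham. The 12 genes did not move together, with 4 negative log2 fold changes, among them Snap25 at -0.39, and a median of 0.04. Skeletal muscle genes were summed to 129 FPKM in sham 1, to 5.22 and 18.8 in sham 2 and 3 and to 4.26 to 8.40 in the CCI libraries, so sham 1 stood apart. Of the macrophage genes 4 of 7 were called higher, beside the same 2.57% of rows (summed FPKM 30.7 to 46.4 in CCI and 19.7 to 26.8 in sham). Among them are Cd68, Csf1r and Cx3cr1, which the paper also reports as higher in these data. Of the 4 fibroblast genes found 0 were called, beside 3.83% of all rows.

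Levels of different genes were compared per length, in FPKM, and the row length implied by the counts and FPKM lay between 9136 bases for Scn3a and 29958 bases for Scn7a, so the order depends on these lengths. In the sham group Scn10a was the most abundant alpha subunit at 67.0 ± 11.3 FPKM (SD, n = 3). Next came Scn11a at 45.8 ± 1.63, Scn7a at 42.2 ± 13.9, Scn8a at 36.8 ± 0.829 and Scn9a at 35.9 ± 9.41 FPKM (SD, n = 3). Among these 4 each neighbour overlapped the next in range, but Scn11a (44.6 to 47.7 FPKM) lay above Scn8a (36.1 to 37.8 FPKM) in every sham library, while Scn7a and Scn9a overlapped both. Scn1a lay clearly under them at 14.7 ± 1.09 FPKM, and Scn2a at 2.89 ± 0.352 and Scn3a at 1.91 ± 1.05 FPKM were lowest, with ranges that overlapped each other (SD, n = 3). In the CCI group the order was Scn10a, Scn11a, Scn7a, Scn9a, Scn8a, Scn1a, Scn3a and Scn2a, so Scn8a stood behind Scn9a and Scn2a behind Scn3a. There only Scn11a and Scn7a, and Scn9a and Scn8a, overlapped as neighbours.

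**Figure D1:**
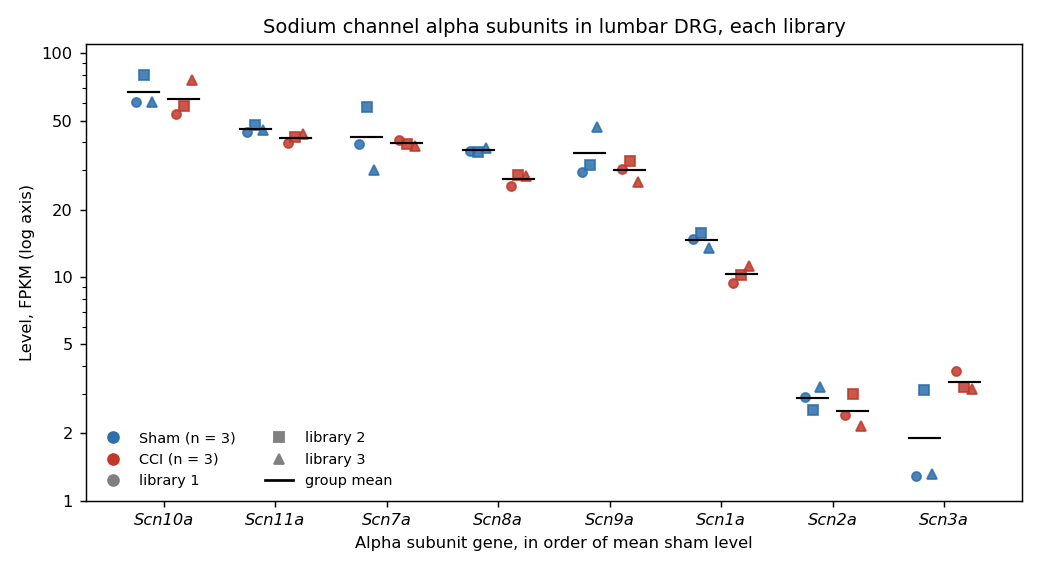
Level of each alpha subunit gene in FPKM on a log axis, with 1 point per library (circle, square and triangle for libraries 1, 2 and 3), blue for sham, red for CCI, and a black line at each group mean. Scn8a, Scn1a and Scn11a show 3 red points under all blue ones, and the square of sham 2 for Scn3a, at 3.13 FPKM, lies beside the CCI points.

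The comparison of CCI with sham asks which of these channels change in the ganglion of a constricted nerve. A gene was called, with the limits the study used, where its unadjusted p lay under 0.05 and its log2 fold change was 0.58 or more in either direction. With edgeR's quasi-likelihood test 0 of the 8 genes were called, against 3.83% of all rows tested (2.57% higher and 1.26% lower). None passed a Benjamini-Hochberg adjusted p under 0.05 over all rows either, which 0.0938% of rows did. With DESeq2 2 of the 8 passed that adjusted p, Scn1a and Scn8a. It passed 751 of the 26663 rows, where the quasi-likelihood test passed 25. At an unadjusted p under 0.05 and any fold there were 3 genes, Scn8a, Scn1a and Scn11a, all lower in the CCI group. Over all rows 10.7% passed that p, and 5.18% of all rows passed it with CCI lower. The same 3 genes were the ones whose groups did not overlap in CPM, all with CCI lower. Over all rows 17.3% did not overlap, 8.7% with CCI lower and 8.63% with CCI higher. Of the 8 log2 fold changes 7 were negative, with a median of -0.18 against 0.01 over all rows tested. With 3 libraries on each side the smallest p of an exact permutation test is 0.1, and the p-values given are therefore from the edgeR fit of the whole table.

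**Figure D2:**
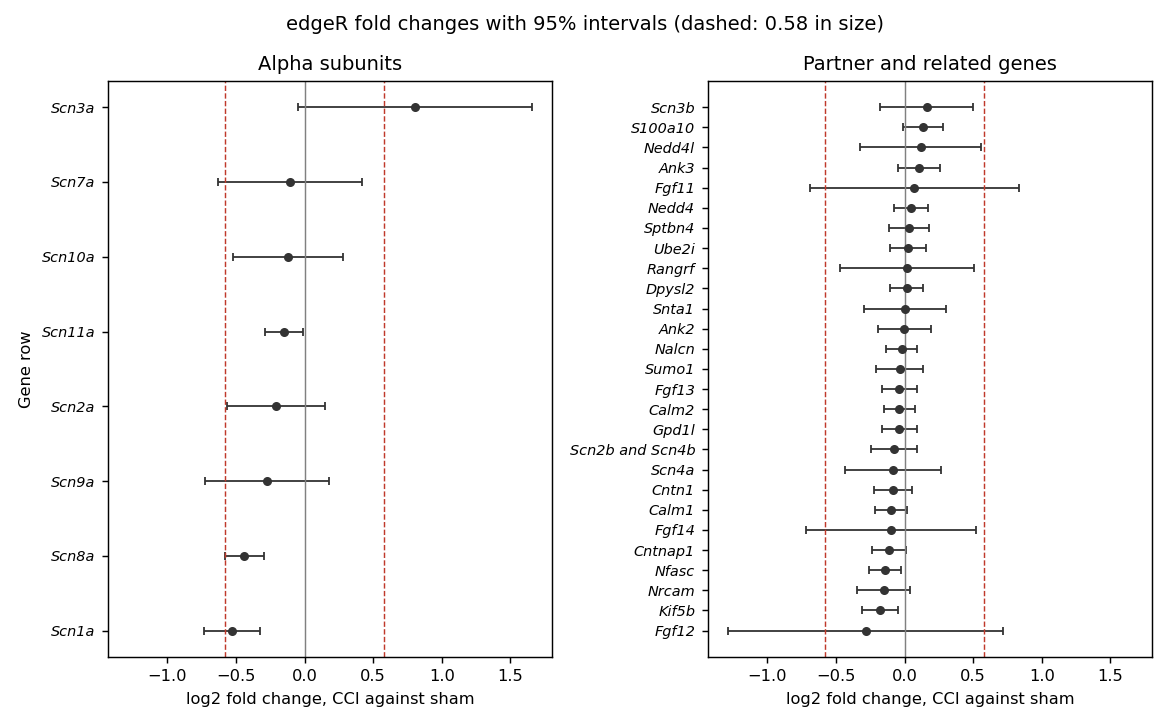
Log2 fold change, CCI against sham, with 95% intervals from edgeR's quasi-likelihood fit, for the 8 alpha subunits (left) and 27 of the 28 tested rows of partner and related genes (right), where Scn2b and Scn4b share 1 row. The dashed lines mark 0.58 in size. Among the alpha subunits Scn3a has the largest and least certain value at 0.81, and Scn1a (-0.53) and Scn8a (-0.44) lie lowest.

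Scn8a (chromosome 7, 142575672 to 142688481, plus strand), the gene of the nodal channel Nav1.6, had the smallest p of the family. It measured 25.6, 28.5 and 28.3 FPKM in CCI 1, 2 and 3 and 36.6, 36.1 and 37.8 FPKM in sham 1, 2 and 3. The highest CCI library lay well below the lowest sham library, and the spread within each group was small (coefficient of variation 5.56% and 2.68% of the CPM). The log2 fold change was -0.44 (standard error 0.06, 95% interval -0.58 to -0.30, unadjusted p = 0.000197, adjusted p = 0.0789 in edgeR's quasi-likelihood test), or 0.737 times the sham level. Leaving out any single library gave values between -0.47 and -0.39, and the value was -0.45 without sham 1.

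Scn1a (chromosome 3, 52381975 to 52533677, minus strand) encodes Nav1.1, a tetrodotoxin-sensitive channel of myelinated afferents. Its level was 9.42, 10.2 and 11.2 FPKM in CCI 1, 2 and 3 and 14.8, 15.7 and 13.5 FPKM in sham 1, 2 and 3. Again every CCI library lay under every sham library. This was a log2 fold change of -0.53 (standard error 0.08, 95% interval -0.73 to -0.33, unadjusted p = 0.000543, adjusted p = 0.109 in edgeR's quasi-likelihood test), or 0.693 times the sham level. The interval reaches past the limit of 0.58, and without CCI 3 the value was -0.59 and the gene passed the limits of the study. Of the 28 pairs of members, Scn1a and Scn8a had the most similar profiles over the 6 libraries, with a root mean square difference of 0.102 in centred log2 CPM. The profiles were set side by side as a description, since both hold the same difference between groups.

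Most of the genes listed for large neurons moved in the same direction. Their summed FPKM was 961 to 1085 in the CCI group and 1246 to 1323 in the sham group, and 6 of the 7 detected had a negative log2 fold change, with 1 of them called, beside 1.26% of all rows called lower. That gene was Pvalb, the calcium buffer of proprioceptors, with a log2 fold change of -0.69 (edgeR, unadjusted p = 0.00134, adjusted p = 0.144). Nefh, the heavy neurofilament of large axons, had a log2 fold change of -0.54, close to that of Scn1a, and the exception was Spp1 at 0.25. Nefh was also the largest part of the sum, with a mean of 570 FPKM in CCI and 822 in sham. The lower sum in CCI therefore came mainly from this gene. The other log2 fold changes were -0.53 for Kcns1, -0.24 for Ntrk3, -0.17 for Ntrk2 and -0.11 for Runx3, whose groups overlapped. CCI 1, with the highest sum of injury genes, was the lowest library for both Scn1a and Scn8a. CCI 2 had a higher sum than CCI 3 (293 against 258), with a lower Scn1a (10.2 against 11.2 FPKM) but not a lower Scn8a (28.5 against 28.3 FPKM). The part of large neurons and of the degree of injury in the values of Scn1a and Scn8a was not tested.

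Promoter windows of 250 bases before to 50 after the start of the gene, from RefSeq on the build GRCr8, were matched for 7 of the 8 genes, all but Scn1a. They are printed for Scn8a and Scn11a, 2 of the genes whose groups did not overlap, and for Scn3a, which had the largest fold change, so that the lower-lying genes can be read beside it. Capitals mark the matches to the GC box GGGCGG on either strand, which 33.1% of the 33365 windows of this length hold. The Scn8a window lies at chr7:133860977-133861276 (plus strand), that of Scn11a at chr8:128444669-128444968 and that of Scn3a at chr3:70666149-70666448 (both minus strand).
Scn8a: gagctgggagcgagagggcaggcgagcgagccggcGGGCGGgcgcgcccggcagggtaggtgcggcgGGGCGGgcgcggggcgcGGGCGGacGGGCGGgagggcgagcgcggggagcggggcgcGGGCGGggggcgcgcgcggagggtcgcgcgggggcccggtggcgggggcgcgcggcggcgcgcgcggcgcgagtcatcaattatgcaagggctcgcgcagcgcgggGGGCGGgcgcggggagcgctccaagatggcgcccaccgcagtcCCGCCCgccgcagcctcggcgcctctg
Scn11a: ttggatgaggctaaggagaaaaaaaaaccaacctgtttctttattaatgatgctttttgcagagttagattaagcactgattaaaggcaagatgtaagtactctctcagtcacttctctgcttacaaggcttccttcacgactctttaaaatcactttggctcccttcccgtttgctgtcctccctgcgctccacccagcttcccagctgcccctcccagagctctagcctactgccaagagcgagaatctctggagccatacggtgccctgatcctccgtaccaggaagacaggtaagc
Scn3a: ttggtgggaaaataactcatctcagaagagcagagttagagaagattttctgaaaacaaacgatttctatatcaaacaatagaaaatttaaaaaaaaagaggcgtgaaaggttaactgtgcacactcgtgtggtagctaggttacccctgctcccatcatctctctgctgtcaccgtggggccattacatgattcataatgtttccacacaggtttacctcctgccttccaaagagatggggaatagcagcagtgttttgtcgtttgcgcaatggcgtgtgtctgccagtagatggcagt
The Scn8a window held 7 GC boxes, none of which overlap, and 84.7% G and C, more than 99.9% of all windows. The windows of Scn11a and Scn3a held 48.3% and 43.3% G and C and no GC box, beside a median of 51.7% over all windows. The AP-1 site (TGACTCA or TGAGTCA), which Fos and Jun family proteins bind, occurs in 4.64% of windows, the full cAMP response element TGACGTCA in 1.83% and the TATA letters TATAAA in 14.2%, counted on both strands. None of these letters was in any of the 7 windows. The GC box was found once more among them, in Scn7a, and the shorter element TGACG, which 21.2% of windows hold, in Scn10a alone. These are matches of letters and no more.

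Scn10a and Scn11a lie side by side on chromosome 8, both on the minus strand and 34.0 kb apart, and encode the tetrodotoxin-resistant channels of nociceptors. Scn11a (128450801 to 128521999), which carries a persistent current near the resting potential, measured 39.8, 42.1 and 43.5 FPKM in CCI 1, 2 and 3 and 44.6, 47.7 and 45.2 FPKM in sham 1, 2 and 3. The groups were narrow, with coefficients of variation of 4.1% and 4.0% of the CPM, and did not overlap, though CCI 3 came close to sham 1. The log2 fold change was -0.15 (standard error 0.06, 95% interval -0.29 to -0.01, unadjusted p = 0.0346, adjusted p = 0.418 in edgeR's quasi-likelihood test). Leaving out CCI 1, CCI 2, sham 2 or sham 3 ended the pass at the unadjusted threshold, and edgeR's exact test did not pass it either (unadjusted p = 0.246).

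Scn10a (128296586 to 128416838), whose channel carries most of the inward current of the nociceptor action potential, measured 53.4, 57.9 and 75.9 FPKM in CCI 1, 2 and 3 and 60.7, 80.1 and 60.3 FPKM in sham 1, 2 and 3. One library in each group, CCI 3 and sham 2, stood high and the groups overlapped. Between groups it differed by a log2 fold change of -0.12 with a 95% interval from -0.52 to 0.28 (edgeR, unadjusted p = 0.494), so a decrease or an increase by these amounts could not be told from no change. Without sham 2 it turned to 0.03. The nociceptor list as a whole was near the same level in both groups, with a summed FPKM of 597 to 625 in CCI and 611 to 647 in sham, and 0 of its 8 genes were called, beside 3.83% of all rows.

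Scn9a (chromosome 3, 52582855 to 52734300, minus strand) encodes Nav1.7, the channel whose loss abolishes pain in people. It measured 30.3, 33.0 and 26.7 FPKM in CCI 1, 2 and 3 and 29.4, 31.6 and 46.7 FPKM in sham 1, 2 and 3. Sham 3 was the library that stood apart, and the other 5 lay together. The log2 fold change of -0.28 (edgeR, 95% interval -0.73 to 0.18, unadjusted p = 0.191) went to -0.03 without sham 3. The highest sham library had 1.61 times the CPM of the lowest, while for Scn8a this ratio was 1.05 in the same libraries.

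Scn3a and Scn2a are neighbours on chromosome 3 as well, 44.7 kb apart on opposite strands. Scn3a (51531149 to 51643140, minus strand), the embryonic channel Nav1.3, measured 3.79, 3.21 and 3.16 FPKM in CCI 1, 2 and 3 and 1.29, 3.13 and 1.32 FPKM in sham 1, 2 and 3. Sham 1 and sham 3 lay far under every CCI library, and sham 2 stood at the CCI level. In CPM with TMM factors sham 2 (28.9) was above CCI 3 (28.7), so the groups overlapped on that scale. In FPKM they did not, with sham 2 (3.13) just under CCI 3 (3.16), so the overlap depends on the scaling. The log2 fold change was 0.81 (standard error 0.36, 95% interval -0.05 to 1.66, unadjusted p = 0.0602, adjusted p = 0.492 in edgeR's quasi-likelihood test). It was the one member past 0.58 in size, and with all 6 libraries it passed the limits under DESeq2 (0.80, unadjusted p = 0.00907), edgeR's exact test (0.81, unadjusted p = 0.0367), limma on log2(FPKM + 0.1) (0.91, unadjusted p = 0.0332) and limma on log2(FPKM + 1) (0.64, unadjusted p = 0.0322). Its adjusted p in these fits ranged from 0.163 to 0.728. Without sham 2 the value was 1.36 (unadjusted p = 4.7e-05, adjusted p = 0.0476 in edgeR's quasi-likelihood test). Without sham 1 or sham 3 it was 0.59 or 0.60 (unadjusted p = 0.158 and 0.160 in that test). Leaving out a CCI library gave an unadjusted p of 0.0925 to 0.139 in that test. With other scalings, other filters or summed rows the same test gave 0.0521 to 0.0677, so it did not pass 0.05 there. The injury genes had a summed FPKM of 91.6 in sham 2 and 90.0 and 83.9 in sham 1 and 3. Most of that sum was Gap43 (64.8 FPKM in sham 2). Among the sham libraries, sham 2 was highest for Atf3, Gap43, Sprr1a and Sox11, but not for Gal, Npy, Vip and Jun. Sprr1a was counted only 6, 6 and 0 times in sham 1, 2 and 3, and Gap43 measured 64.4 FPKM in sham 1, so neither set sham 2 apart. Atf3 measured 2.36 FPKM in sham 2 beside 1.89 and 2.11, and Npy 0.994 beside 1.22 and 1.09, in sham 1 and 3. Whether injury had a part in the Scn3a level of sham 2 was not tested.

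Scn2a (51687809 to 51822250, plus strand) measured 2.43, 3.01 and 2.15 FPKM in CCI 1, 2 and 3 and 2.90, 2.54 and 3.24 FPKM in sham 1, 2 and 3. The groups overlapped, with a log2 fold change of -0.21 (edgeR, 95% interval -0.57 to 0.15, unadjusted p = 0.207). The ratio of Scn3a to Scn2a FPKM was 1.56, 1.07 and 1.47 in CCI 1, 2 and 3 and 0.446, 1.23 and 0.408 in sham 1, 2 and 3. Scn3a was thus the more abundant of both in every CCI library and in sham 2, and the less abundant in sham 1 and sham 3.

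Scn7a (chromosome 3, 52766239 to 52877386, minus strand), the sodium-sensing relative Nax, is also known from glia and Schwann cells. It measured 40.9, 39.2 and 38.7 FPKM in CCI 1, 2 and 3 and 39.2, 57.3 and 30.0 FPKM in sham 1, 2 and 3. The CCI libraries agreed closely (coefficient of variation 3.33% of the CPM) and lay inside the wide range of the sham libraries (33.0%). The difference between groups was -0.11 (log2) with a 95% interval from -0.63 to 0.42 (edgeR, unadjusted p = 0.636), and without sham 2 it turned to 0.18. Neither the satellite glia list (6 genes) nor the Schwann cell list (7 genes) held a called gene. Over all rows 3.83% were called, so this is no result about glia. In the satellite glia list Cdh19 (log2 fold change 0.37) and Fabp7 (-0.55) did not overlap between groups, in opposite directions.

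**Figure D3:**
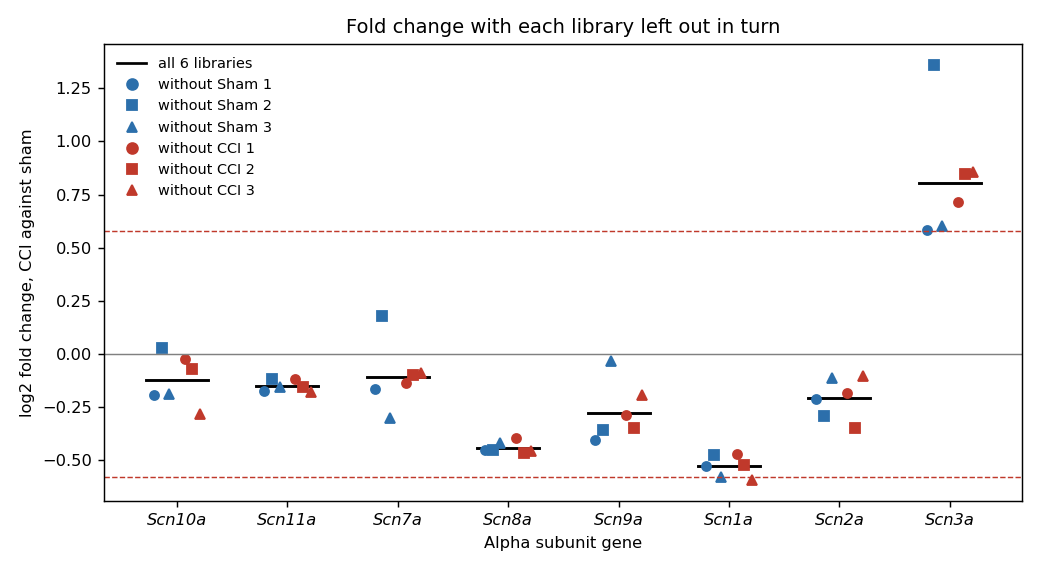
Log2 fold change of each alpha subunit, CCI against sham, with all 6 libraries (black line) and after leaving out 1 library at a time (blue symbols for a sham library, red for a CCI library). Scn8a and Scn11a stay within a narrow band, while Scn3a moves from 0.81 to 1.36 without sham 2 and Scn9a from -0.28 to -0.03 without sham 3.

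As a share of the summed FPKM of the 8 genes, Scn10a and Scn11a together made up 47.8% ± 3.67 in the CCI group and 45.6% ± 1.17 in the sham group (SD, n = 3), and the groups overlapped. Scn1a held 4.58%, 4.71% and 4.89% in CCI 1, 2 and 3 and 6.45%, 5.72% and 5.68% in sham 1, 2 and 3, without overlap. Scn8a held 12.6% ± 0.438 in the CCI group and 15.0% ± 1.57 in the sham group (SD, n = 3), and here CCI 2 (13.1%) came close to sham 2 (13.2%). Scn3a held 1.57% ± 0.244 and 0.753% ± 0.336 (SD, n = 3). The sum itself was 206, 217 and 230 FPKM in CCI 1, 2 and 3 and 230, 274 and 238 FPKM in sham 1, 2 and 3, with CCI 3 and sham 1 at almost the same value. Shares sum to the whole, so they are not independent of each other, and they were not tested.

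**Figure D4:**
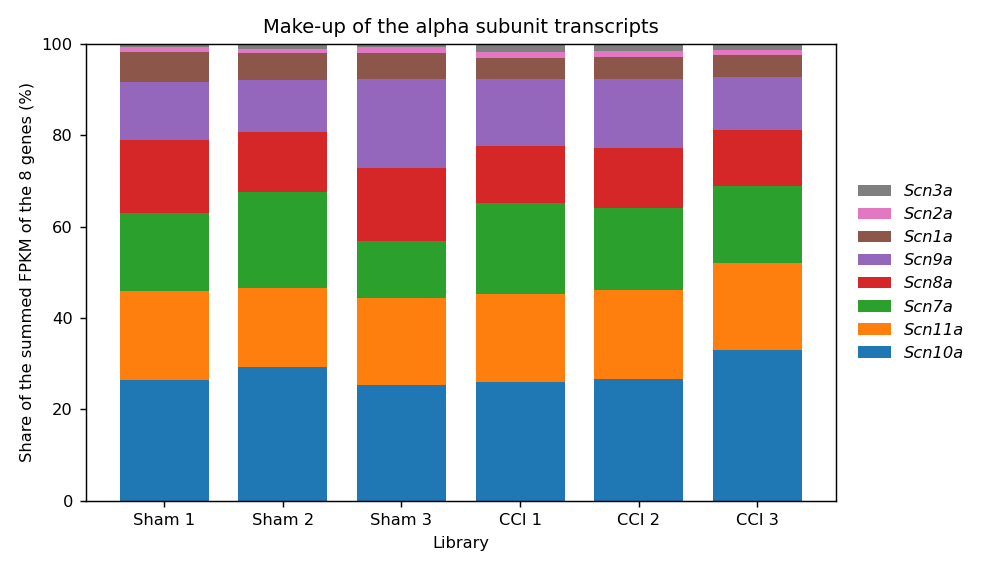
Share of each alpha subunit in the summed FPKM of the 8 genes, in percent, with 1 stacked bar per library. Scn10a and Scn11a fill 44.3% to 52.0% of every bar, and the band of Scn1a is thinner in the 3 CCI libraries (4.58% to 4.89%) than in the 3 sham libraries (5.68% to 6.45%).

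The table holds 14 further rows that carry the symbol of a member, for 6 of the 8 genes, all placed on the opposite strand of the channel gene. Each held 0.206% to 3.37% of the counts of its channel gene. The study does not state whether strand was used in counting, so reads of a channel gene and of its opposite strand may not have been told apart. All 14 passed the filter, and 3 were called lower in the CCI group, all at Scn1a, beside 1.26% of all rows. Scn1a had the most such rows, with 8 rows of its symbol when the channel gene is included. Its opposite-strand rows overlap each other in position, so the 3 called are not separate genes. The clearest of them, which runs from 52384067 to 52587816 and reaches into the end of Scn9a, was counted 28, 19 and 49 times in CCI 1, 2 and 3, but 135, 136 and 124 times in sham 1, 2 and 3. Its log2 fold change was -1.96 (unadjusted p = 0.00214, adjusted p = 0.171 in edgeR's quasi-likelihood test), a larger change than that of Scn1a itself (-0.53). The second (52382459 to 52389652) was counted 79, 73 and 96 times in CCI 1, 2 and 3, but 163, 116 and 186 times in sham 1, 2 and 3. The third (52384824 to 52391932) rested on sham 3, with 841 counts there and 20 to 65 in the other 5 libraries. The other opposite-strand rows at Scn1a were not called and went both ways, with log2 fold changes from -0.78 to 0.23. Those at Scn9a, Scn10a, Scn11a, Scn8a and Scn7a were not called either.

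The list of 31 partner and related genes comprised beta subunits, fibroblast growth factor homologous factors, genes of anchoring, trafficking and turnover, and other sodium-conducting channels. By symbol 30 were matched, on 29 rows, of which 28 were tested. None was called at the limits of the study in edgeR's quasi-likelihood test or under any alternative run, DESeq2 and limma included, and at an unadjusted p under 0.05 alone there were 3 of 28, near the 10.7% of all rows that passed that p, so the count is no result about the partners. The median log2 fold change was -0.04.

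Scn2b and Scn4b shared 1 joined row with a value of -0.08, and Scn3b had 0.16. Nfasc, which anchors channels at the node, had a log2 fold change of -0.14, and Kif5b, a motor that carries channels along axons, -0.18. Ank3, the ankyrin that holds sodium channels at the initial segment and node, had 0.10, and Fgf13, the most abundant homologous factor at 107 and 109 FPKM in CCI and sham, had -0.04. Fgf12 varied most, from 15.6 to 39.1 FPKM among the CCI libraries and 19.5 to 44.4 among the sham libraries. Scn4a, the channel of skeletal muscle, was near 1 FPKM in both groups and was not raised in sham 1 (1.27 FPKM beside 1.12 and 1.12 in sham 2 and 3).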

How the data were processed

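Total RNA of 6 libraries, depleted of ribosomal RNA, was sequenced in paired ends by the authors. Per the methods, reads were mapped with HISAT to the rat genome the authors call V101, assembled with StringTie and counted per gene row. The submitters' processing notes name HISAT2 2.0 and StringTie 1.3.0, and the methods give a later point release of the first. The count values were deposited as raw whole numbers, and the FPKM values were made by the authors from those counts, the column total and a row length. Coordinates are those of the deposited table. Whether strand was used, and how reads that map to several channel genes were counted, is not given in the sources used here.

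Counts were tested with edgeR 4.0.16 (TMM factors, quasi-likelihood test, surgery as the only term) on the 26663 rows whose FPKM averaged 0.5 or more, under R 4.3.3. Standard errors and 95% intervals were derived from the F statistic. Alternatives were DESeq2 1.42.0, edgeR's exact test, limma 3.58.1 on log2(FPKM + 0.1) and log2(FPKM + 1), other scalings (among them the pan-neuronal genes), other filters, summed rows, the replicate block and each library left out. The tests were tried on simulated counts. The members and lists were chosen with earlier results of these data known. Named genes were the members, partner genes that were called (none), defining markers beside a member they moved with, and for each member the 2 protein-coding genes of nearest profile. The partner genes named in the text were not called and were chosen after their values were seen. Values of a few partner and neighbour genes are not reported here. Pairs of libraries of a group differed beyond sampling noise (chi-square per degree of freedom 57.3 to 84.2), so none was counted as a duplicate. Rows without a symbol held 5.37% to 5.72% of counts. Tables and plots were made with Python 3.11.15, pandas 2.3.3 and matplotlib 3.10.9.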

Additional observations from a re-analysis of the deposited data

How the results depend on the processing

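The directions of Scn1a, Scn2a, Scn3a, Scn8a, Scn9a and Scn11a held under all 18 alternatives each. Those of Scn7a and Scn10a turned in 1 each, to 0.18 for Scn7a and 0.03 (0.0302) for Scn10a without sham 2. With each library left out, the log2 fold change ranged from -0.59 to -0.47 for Scn1a, from 0.59 to 1.36 for Scn3a, from -0.30 to 0.18 for Scn7a and from -0.28 to 0.03 for Scn10a. At the limits of the study 0 members were called, and leaving out each library gave 0 to 1 (Scn1a lower without CCI 3, Scn3a higher without sham 2). Scn3a was the 1 gene called with DESeq2 (0.80), edgeR's exact test (0.81), limma on log2(FPKM + 0.1) (0.91) and on log2(FPKM + 1) (0.64), and with the replicate block (0.94). Scaling to the summed counts of the pan-neuronal genes, of which Tubb3 had the most, called 2 members, Scn1a (-0.70) and Scn8a (-0.61). It also moved the median of all rows to -0.17. Relative to that median these 2 members lay at -0.53 and -0.44, as in the fit with TMM factors. The replicate numbers are not stated to pair rats, and deviations of same-numbered libraries did not go together (correlations -0.0605 to -0.0117), so the block is given here alone. Adjusted p-values over all rows of Scn1a and Scn8a passed 0.05 with DESeq2 (4.03e-05 and 3.51e-06), for Scn1a with the exact test (0.0351) and for Scn8a with protein-coding rows alone (0.0346), and with the block they were 0.319 and 0.242. The count of partner genes called was 0 under every alternative run. Over all rows 686 were called higher and 336 lower, against 377 and 789 with pan-neuronal scaling, 410 and 161 with limma on log2(FPKM + 1), and 353 and 115 with protein-coding rows alone. An adjusted p under 0.05 was met by 25 rows, by 751 with DESeq2, 231 with the exact test, 76 with protein-coding rows alone, 0 with the block and 6 to 61 with a library left out. The 95% intervals of Scn2a, Scn3a, Scn7a, Scn9a and Scn10a each reach past 0.5 in 1 direction, so changes within those intervals were not detectable for them.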

Other observations

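For each alpha subunit the 2 protein-coding genes with the nearest profile over the 6 libraries were found among 12616 rows whose FPKM averaged 1 or more, by the root mean square difference of centred log2 CPM. The nearest to Scn1a was Zcchc12 (0.0568), with a log2 fold change of -0.49. Those of Scn8a were Purg (0.0308) and Sec14l2 (0.0340), with -0.44 and -0.39, and those of Scn11a were Acadl (0.0153) and Scamp1 (0.0193), with -0.15 for both. The median difference over all rows compared was 0.302 for Scn1a, 0.256 for Scn8a and 0.150 for Scn11a. Scn3a had the least close neighbours, Brat1 (0.184) and Slc41a3 (0.201) with log2 fold changes of 0.70 and 0.69. The nearest were Hs3st1 and LOC100910196 for Scn2a, Kif27 and Rbm4b for Scn7a, Gdpd2 and Zbtb33 for Scn9a and Idnk and AABR07002774 for Scn10a, at 0.0442 to 0.0954. Profiles of 6 libraries are short, and a small difference is found for some gene by the number of rows compared alone.

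Among the libraries, sham 2 was the highest of its group for 5 of the 8 alpha subunits and the lowest for 2, and sham 1 was the highest for none and the lowest for 4. In the CCI group CCI 1 and CCI 3 were the lowest for 4 genes each and CCI 2 for none.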
